A study of Homo sapiens with 8 samples.

Results

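Interferon-stimulated genes, the genes that cells switch on after an interferon binds its receptor, were followed in MP38 cells across a DMSO control and 3 epigenetic drugs. The set held 39 genes chosen by name from the 35238 gene rows of the count table, and the rule that lists them applies no threshold to a measured value. The members were, however, chosen with earlier results of these data known, so counts of them are descriptions alone. All 39 were present and all 39 passed the filter on low counts that left 15085 genes for testing. None was at or under 3 counts in any library.

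MP38 is an established human uveal melanoma line with a BAP1 mutation, so every group is the same line and results describe that line alone. The 4 groups were control wells in 0.1% DMSO, romidepsin at 40 nM, quisinostat at 40 nM and mivebresib at 1200 nM, each kept for 24 h in 0.1% DMSO, with 2 libraries from duplicate wells in each group. Romidepsin is a cyclic depsipeptide that inhibits class I histone deacetylases (HDACs), quisinostat is a hydroxamic acid that inhibits HDACs more broadly, and mivebresib blocks the bromodomains of the BET proteins, which read acetylated histones. The comparisons ask how HDAC and BET inhibition altered transcript levels after the same exposure time. No group received interferon, so the levels are those of unstimulated cells. The p-values reflect the spread between duplicate wells.

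Type I interferons act through the receptor IFNAR1 and IFNAR2 and the kinases JAK1 and TYK2. Their activity leads to the complex ISGF3, which includes STAT2 and IRF9 and binds the interferon-stimulated response element (ISRE) in the promoters of its targets. Interferon gamma acts mainly through a different, palindromic promoter site called GAS. The products of the target genes sense viral RNA, degrade or sequester it, block viral entry and release, conjugate the ubiquitin-like protein ISG15 to other proteins, and adapt the proteasome to antigen processing. Many of these genes also have a basal level in tumour cells.

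Most members whose promoter could be read carried an ISRE core there. A promoter window of 300 bases, from 250 bases before to 50 bases after the annotated start (RefSeq, GRCh38.p14), was found for 32 of the 39 members and not for IRF7, IFIT2, OAS2, OASL, USP18, MX2 and IFITM2. Both strands were searched for the ISRE core GAAANNGAAA and for the GAS core TTCNNNGAA. An ISRE core was present in 23 of 32 members (71.9%), against 4.38% of the 27305 genes of the promoter table, and a GAS core in 10 of 32 (31.2%), against 9.38%. Matches of the ISRE core can overlap where the half-site repeats, as in BST2. The following windows, written 5′ to 3′ on the strand of the gene with the matched bases in capitals, are from 6 genes that were lower with mivebresib and 4 that were not. They are shown because the same core stands in both sets.
BST2 (chr19:17405730-17405769, minus strand): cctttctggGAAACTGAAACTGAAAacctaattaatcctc
IFIT1 (chr10:89392492-89392531, plus strand): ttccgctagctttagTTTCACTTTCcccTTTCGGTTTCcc
ISG20 (chr15:88638932-88638971, plus strand): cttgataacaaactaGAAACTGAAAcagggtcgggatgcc
OAS3 (chr12:112938316-112938355, plus strand): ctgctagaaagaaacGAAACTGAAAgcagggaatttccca
PARP14 (chr3:122680795-122680834, plus strand): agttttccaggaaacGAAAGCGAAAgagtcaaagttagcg
SAMD9 (chr7:93118091-93118130, minus strand): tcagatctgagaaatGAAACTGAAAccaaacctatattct
IFI6 (chr1:27672261-27672300, minus strand): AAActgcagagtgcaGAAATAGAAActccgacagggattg
ISG15 (chr1:1013369-1013408, plus strand): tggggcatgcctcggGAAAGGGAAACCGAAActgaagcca
HERC5 (chr4:88456979-88457018, plus strand): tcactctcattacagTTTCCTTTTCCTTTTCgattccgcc
RSAD2 (chr2:6877617-6877656, plus strand): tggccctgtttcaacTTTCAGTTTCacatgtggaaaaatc

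Among genes with a window, the ISRE core was found in 14 of the 19 members that were lower with mivebresib (73.7%) and in 9 of the 13 other members (69.2%). For the GAS core the shares were 5 of 19 (26.3%) and 5 of 13 (38.5%). PARP9 and DTX3L, which are transcribed away from each other, share a single match at chr3:122564317-122564356. A match is a description of letters in a window, not evidence of binding.

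The libraries held between 28483235 and 29359024 counts. Levels are given as CPM, the counts divided by the TMM-scaled size of the library, a scaling that sets each library against the bulk of its genes, so a change shared by all transcripts would not be seen. In bulk RNA, fewer cells carrying a transcript and less transcript per cell cannot be told apart. The summed level of 7 melanocytic markers was between 3563 and 5452 CPM, with DCT at no more than 5 counts. TYRP1 makes up most of that sum. Of the 6 melanocytic markers tested, 4 were lower with mivebresib (median log2 -1.02), 3 with quisinostat (median -0.59) and 1 with romidepsin. Of all genes tested, 24.1%, 25.1% and 15.8% were lower, in the same order. SOX10, a lineage transcription factor, had 216 and 202 CPM in control and 57.2 and 52.8 with mivebresib (log2 -1.93), and MITF had 351 and 349 in control, 133 and 134 with quisinostat and 124 and 129 with mivebresib. Of 18 markers of leukocytes, endothelium, fibroblasts and epithelium, 11 had at most 10 counts in every library and CD3E and CDH5 were at 0. Their summed level ranged from 84.6 to 108 CPM in control, 102 to 108 with romidepsin, 109 to 113 with quisinostat and 78.3 to 85.1 with mivebresib. CD68 makes up most of that sum and was not called with any drug. Of the 6 markers tested, 5 were higher with quisinostat (COL1A1, PECAM1, PDGFRA, KRT8 and KRT18, median of the 6 log2 1.30), where 28% of all genes were. COL1A1 was also higher with romidepsin (log2 1.51), where 15.2% of all genes were. With mivebresib KRT18 was higher (log2 1.14) and PDGFRA lower (log2 -1.04), where 22.2% and 24.1% of all genes were. COL1A1 had 1.42 and 1.64 CPM in control and 10.4 and 7.99 with quisinostat (log2 2.58). The part of either marker list in the results was not tested. The leukocyte marker PTPRC lay between 1 and 11 counts and the epithelial marker EPCAM between 0 and 5.

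The 2 libraries of a group were not equal for these genes. The library numbered 1 was the higher for 33 of 39 members in control, 31 with romidepsin, 27 with quisinostat and 35 with mivebresib. Over all genes tested it was the higher for 49.4%, 48.4%, 51.8% and 51.6%. The median difference of the members between the libraries of a group was 0.45, 0.25, 0.13 and 0.49 on the log2 scale, in the same order. Regardless of sign, their median difference was 0.49, 0.25, 0.15 and 0.51. Over all genes tested it was 0.23, 0.12, 0.11 and 0.13, so the control libraries were the least alike there. For 20 members the first library was the higher in all 4 groups, a pattern that was not counted over all genes. OAS1 is an example, with 589 and 249 counts in the control libraries and 189 and 84 with mivebresib. The members that differed by more than 1 on the log2 scale between control libraries were IFIT1, IFIT5, OAS1, RSAD2, IFI44L and XAF1, and those between mivebresib libraries were OAS1, OAS2, OAS3, ISG15 and IFITM1. These gaps widen the error of the genes concerned, and the cause was not tested.

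**Figure D1:**
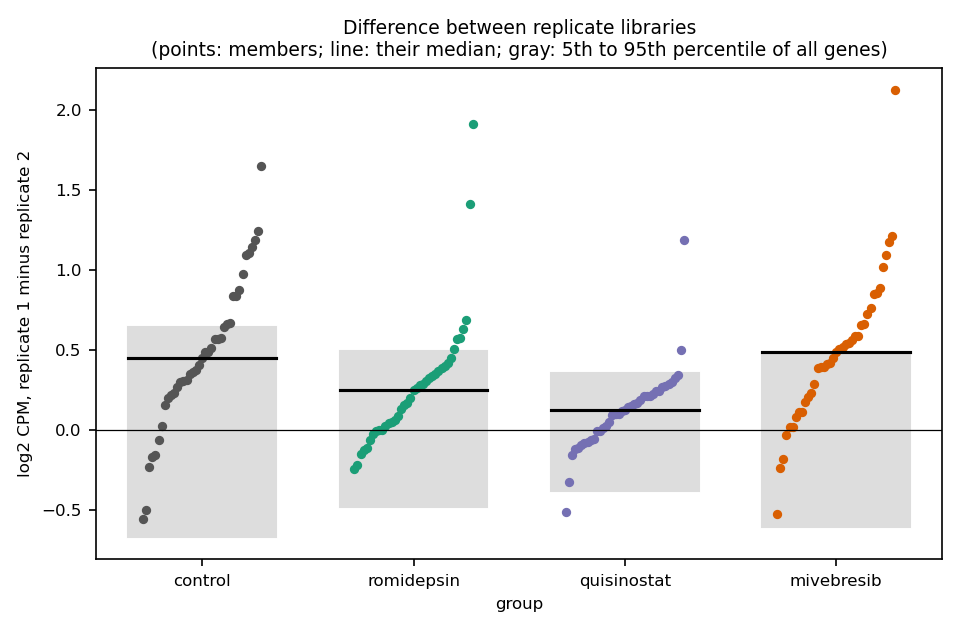
Difference in log2 CPM between the 2 libraries of each group (replicate 1 minus replicate 2, y axis) for each of the 39 members (points, sorted), with the members' median (black line) and the 5th to 95th percentile range of all 15085 genes (gray). Most points lie above 0 in every group, with medians of 0.45 in control, 0.25 with romidepsin, 0.13 with quisinostat and 0.49 with mivebresib.

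Basal levels differed widely between members. Per kilobase of merged exons (GENCODE 29), BST2, which tethers budding virions to the cell surface, was highest in control at 208 CPM per kb, followed by IFITM3 at 148, IFI6 at 103, IFI27 at 45.8 and ISG15 at 34.9. The lowest were MX2 at 0.065 and IFI44L at 0.096 CPM per kb. MX1, the classical marker of an interferon response, stood at 0.323 CPM per kb, in position 36 of 39.

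The number and direction of called members varied with the drug. With mivebresib, 24 of the 39 members were lower than control and 2 were higher. This compares with 24.1% of all genes tested called lower and 22.2% called higher. With romidepsin, 7 were higher and 1 was lower, where the background was 15.2% higher and 15.8% lower. With quisinostat, 5 were higher and 7 were lower, against 28% and 25.1% of all genes. A call means an adjusted p under 0.05 in the quasi-likelihood test of edgeR, adjusted by Benjamini-Hochberg over all 15085 genes. The share of members higher with romidepsin was therefore close to the background, while few members were lower.

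The median log2 fold change of the members was -0.92 with mivebresib, 0.16 with romidepsin and -0.07 with quisinostat, and the median of all genes lay between -0.012 and 0.0067. Of the 39 estimates, 31 were negative with mivebresib, 13 with romidepsin and 21 with quisinostat. All 3 comparisons use the same 2 control libraries, and are therefore not independent. Without control replicate 1 the medians were -0.56, 0.54 and 0.15, and without control replicate 2 the median was -0.38 with quisinostat, so the sign of that median rested on which control library was used. Without mivebresib replicate 2, fewer members were lower with mivebresib, and fewer of all genes were.

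Single libraries also moved the results with romidepsin. The median of the members there was 0.027 without control replicate 2 and 0.54 without control replicate 1. When only the 4 libraries of a comparison were fitted, the calls of HERC5, IFI44, ISG20 and PSMB9 with romidepsin and of EIF2AK2, IFIT1, HERC6 and BST2 with mivebresib were lost. In those fits 8.79% of all genes were higher with romidepsin and 18.4% were lower with mivebresib. Library sizes without TMM factors ended the calls of IFITM3 and PARP14 with quisinostat.

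Few members passed the additional threshold of the study, a log2 fold change beyond 1.5. With mivebresib, OAS1, OAS2 and PSMB8 did so downward, where 4.36% of all genes passed, and none did upward, where 3.96% passed. With quisinostat, PSMB9 passed upward and none downward, where 11.2% and 1.03% of all genes passed. With romidepsin no member passed in either direction (background 3.77% and 0.312%).

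**Figure D2:**
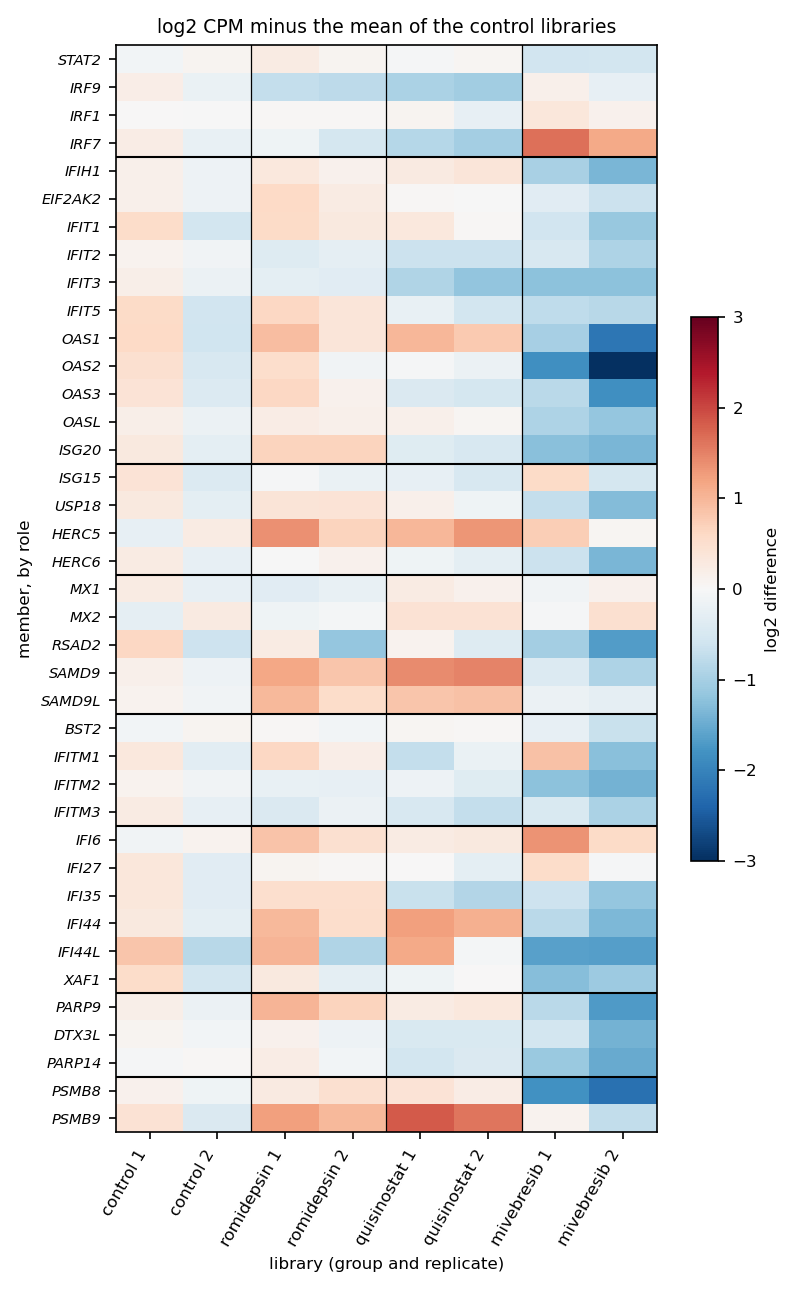
log2 CPM of the 39 members in the 8 libraries (columns), minus the mean of the control libraries, with members in rows grouped by role (signal transducers at the top, immunoproteasome subunits at the bottom); red is higher and blue lower. The mivebresib columns are blue for most members, with IRF7 and IFI6 in red, and the quisinostat columns are red for SAMD9, SAMD9L, IFI44, HERC5 and PSMB9.

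The transcription factors that relay the signal moved apart from each other. Of 4 transducers, mivebresib gave 1 higher (IRF7) and 1 lower (STAT2), quisinostat gave 2 lower (IRF9 and IRF7) and romidepsin gave 1 lower (IRF9). Over all genes 22.2% were higher and 24.1% lower with mivebresib, 25.1% lower with quisinostat and 15.8% lower with romidepsin. STAT2, the subunit of ISGF3 that carries its transactivation domain (chr12:56341597-56360155), had 50.9 and 56.8 CPM in control, 63.7 and 56.6 with romidepsin, 52.1 and 56.4 with quisinostat and 35.8 and 36.6 with mivebresib. Only the mivebresib libraries lay apart from the control libraries, with a log2 fold change of -0.57 (SE 0.10, adjusted p = 0.00143). IRF9, the DNA-binding subunit (chr14:24161053-24166565), had 31.8 and 23.9 CPM in control, 16.8 and 16.0 with romidepsin, 14.2 and 13.3 with quisinostat and 30.5 and 23.2 with mivebresib. It was lower with both HDAC inhibitors, by -0.76 (SE 0.16, adjusted p = 0.00901) and -1.02 (SE 0.16, adjusted p = 0.00104), and its mivebresib change was -0.06 (95% interval -0.42 to 0.31). Without romidepsin replicate 1 or 2, the IRF9 change with romidepsin was -0.80 or -0.73 and no longer passed.

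IRF7, the interferon regulatory factor that amplifies type I interferon production (chr11:612553-615999), was higher with mivebresib and lower with quisinostat. Its level was 6.55 and 4.79 CPM in control, 5.12 and 3.89 with romidepsin, 3.07 and 2.74 with quisinostat and 17.7 and 12.4 with mivebresib. Both mivebresib libraries stood above the other 6, and the rise was 2.65-fold (log2 1.41, SE 0.22, adjusted p = 0.00107). With quisinostat IRF7 was lower by -0.96 (SE 0.25, adjusted p = 0.0108), a call lost without quisinostat replicate 2 (-0.92). IRF1, a factor induced chiefly by interferon gamma (chr5:132481609-132490798), lay between 9.30 and 14 CPM in all 8 libraries and passed in none of the 6 comparisons. Its interval for mivebresib was -0.05 to 0.55 on the log2 scale. The IRF9 locus is covered on the same strand by a readthrough gene model that the table does not list, so its reads may include that transcript.

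**Figure D3:**
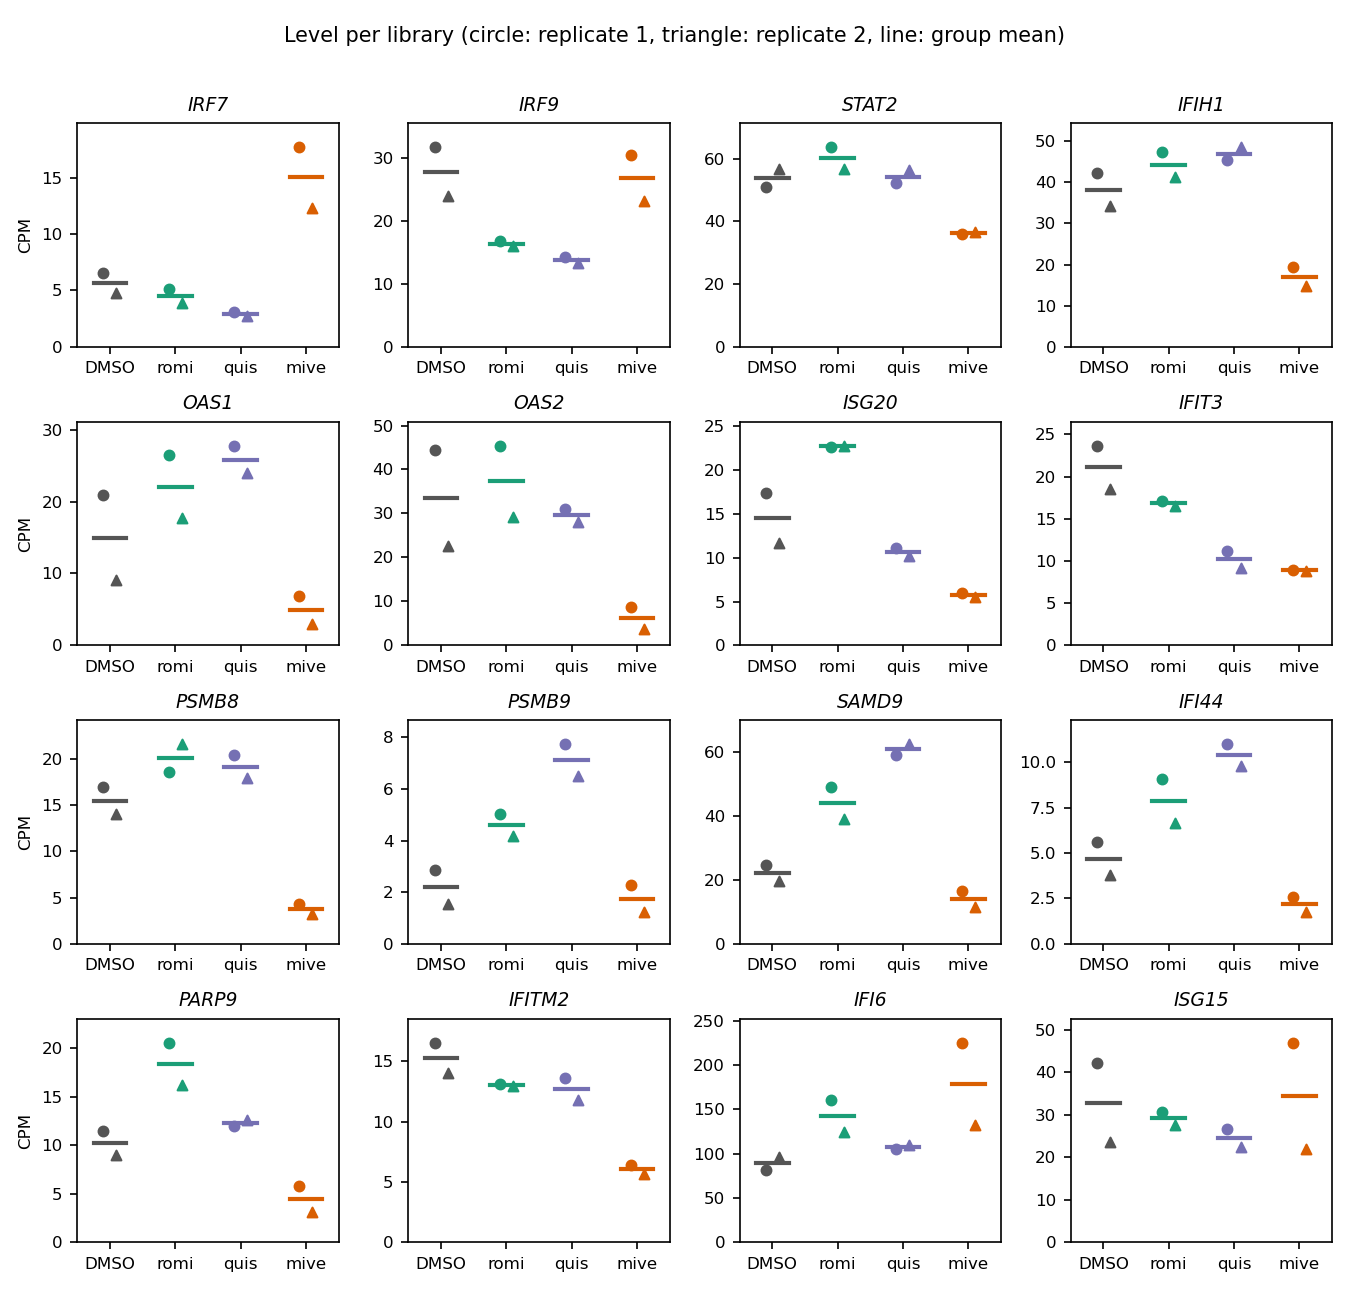
CPM (y axis, linear, from 0) of 16 members in each library, with DMSO control, romidepsin (romi), quisinostat (quis) and mivebresib (mive) on the x axis, a circle for replicate 1, a triangle for replicate 2 and a line at the group mean (n = 2). IRF7 is highest with mivebresib at 17.7 and 12.4 CPM, while PSMB8, OAS2 and IFIH1 are lowest there; PSMB9 and SAMD9 are highest with quisinostat.

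The genes that sense, bind or cut foreign RNA were mostly lower with mivebresib. Against control, 10 of the 11 were lower, where 24.1% of all genes were, and all 11 estimates were negative, with a median of -1.16. The roles were drawn with earlier results of these data known. IFIH1 encodes MDA5, the cytosolic sensor of long double-stranded RNA (chr2:162267079-162318703). It had 42.2 and 34.2 CPM in control, 47.4 and 41.2 with romidepsin, 45.5 and 48.6 with quisinostat and 19.4 and 14.7 with mivebresib. The mivebresib libraries were below all others, at a log2 fold change of -1.16 (SE 0.15, adjusted p = 0.000414). EIF2AK2, the RNA-activated kinase PKR that halts translation, was lower by a smaller amount, -0.49 (SE 0.15, adjusted p = 0.0279). That call did not hold without control replicate 1 (-0.31), mivebresib replicate 2 (-0.35) or either quisinostat library (-0.48).

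The oligoadenylate synthetases make the second messenger that activates RNase L. With mivebresib all 3 of them together with OASL were lower, against 24.1% of all genes. OAS2 (chr12:112978395-113011723) had 44.3 and 22.5 CPM in control, 45.4 and 29.2 with romidepsin, 31.1 and 28.1 with quisinostat and 8.70 and 3.70 with mivebresib. Its decrease was the largest of the set among calls against control, 5.39-fold (log2 -2.43, SE 0.43, adjusted p = 0.00189), and the groups did not overlap although the 2 libraries of a group differed by up to 1.22 on the log2 scale. OAS1 (chr12:112906777-112933222) had 20.9 and 9.10 CPM in control, 26.4 and 17.7 with romidepsin, 27.8 and 23.9 with quisinostat and 6.91 and 3.02 with mivebresib. Both mivebresib libraries were the lowest, with a log2 fold change of -1.60 (SE 0.45, adjusted p = 0.0189). OAS3 fell from 44.8 and 25 CPM to 19.0 and 9.31 (log2 -1.30, SE 0.35, adjusted p = 0.0160), with 51.6 and 36.3 under romidepsin and 24.9 and 23.2 under quisinostat. OASL, a relative without synthetase activity, fell from 12.2 and 9.39 to 5.60 and 4.75 CPM (log2 -1.06, SE 0.15, adjusted p = 0.000703) and stayed between 11.2 and 12.6 CPM with the HDAC inhibitors. The calls of OAS1 and OAS3 rested on single libraries. Without control replicate 1 their changes were -0.85 and -0.80, and without mivebresib replicate 2 they were -1.12 and -0.88, and neither passed.

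ISG20, a 3′ to 5′ exonuclease of single-stranded RNA (chr15:88636153-88656483), separated all 3 drugs. It had 17.4 and 11.7 CPM in control, 22.7 and 22.8 with romidepsin, 11.1 and 10.2 with quisinostat and 5.93 and 5.47 with mivebresib. No 2 groups overlapped. The change was 0.65 with romidepsin (SE 0.16, adjusted p = 0.0186), -0.45 with quisinostat (SE 0.17, adjusted p = 0.0531) and -1.35 with mivebresib (SE 0.18, adjusted p = 0.000454). The romidepsin call was lost without either romidepsin library, at 0.65 and 0.64.

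The IFIT proteins act on foreign RNA, IFIT1 by binding its 5′ end. With mivebresib 3 of the 4 genes were lower, against 24.1% of all genes. IFIT3 (chr10:89327894-89340971) had 23.7 and 18.5 CPM in control, 17.1 and 16.5 with romidepsin, 11.2 and 9.17 with quisinostat and 8.92 and 8.81 with mivebresib. It was lower with quisinostat (log2 -1.05, SE 0.14, adjusted p = 0.000375) and with mivebresib (log2 -1.25, SE 0.14, adjusted p = 0.000203). IFIT2 was lower with the same drugs, by -0.66 and -0.70 (SE 0.15 for both). IFIT1 fell from 25 and 11.5 to 11.4 and 7.73 CPM with mivebresib at an adjusted p of 0.0492 (log2 -0.93, SE 0.34), a call lost whichever library was left out other than control replicate 2, at values from -0.25 to -1.24, and also with library sizes alone (-0.92), relative log expression factors (-0.93) and limma-voom (-0.86). IFIT5 had 6.70 and 3.0 CPM in control, 6.94 and 5.82 with romidepsin, 3.86 and 3.03 with quisinostat and 2.63 and 2.48 with mivebresib, and passed in no drug against control (mivebresib -0.92, 95% interval -1.71 to -0.14, adjusted p = 0.0556). IFIT1, IFIT2 and IFIT3 lie inside the gene LIPA on the opposite strand, whose log2 change was 0.46, 0.88 and 0.39 with romidepsin, quisinostat and mivebresib. Per the labels the libraries were strand-specific, but the strand setting of the counting is not given in the sources used here.

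ISG15 and its conjugation machinery did not move as a unit. Among 4 genes, USP18, the protease that removes ISG15 and restrains the receptor, and HERC6 were lower with mivebresib, where 24.1% of all genes were. USP18 went from 10.5 and 7.05 to 5.23 and 3.45 CPM (log2 -1.02, SE 0.24, adjusted p = 0.00827), with 11.2 and 11.4 under romidepsin and 9.56 and 7.93 under quisinostat. HERC6 went from 3.47 and 2.41 to 1.83 and 1.08 CPM (log2 -1.02, SE 0.28, adjusted p = 0.0178) and was between 2.36 and 3.17 with the HDAC inhibitors. Without mivebresib replicate 2 these changes were -0.75 and -0.69 and did not pass, and HERC6 did not pass without control replicate 1 either (-0.71).

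HERC5, the main ligase for ISG15 in human cells, was higher with both HDAC inhibitors. Its level was 1.17 and 1.68 CPM in control, 3.71 and 2.27 with romidepsin, 2.88 and 3.63 with quisinostat and 2.38 and 1.47 with mivebresib. The change was 1.07 with romidepsin (SE 0.34, adjusted p = 0.0420) and 1.19 with quisinostat (SE 0.33, adjusted p = 0.0153). Without control replicate 1 the changes were 0.85 and 0.94 and neither passed. Without romidepsin replicate 1 the first was 0.67, and without quisinostat replicate 2 the other was 0.98, and these also missed the threshold, as did the romidepsin change of 1.08 when either quisinostat library was left out. The romidepsin call was also lost with limma-voom (1.04), with replicate number added to the model (1.05) and with only the 4 libraries of the comparison (1.08). ISG15 itself (chr1:1001138-1014540) had 42.1 and 23.5 CPM in control, 30.7 and 27.5 with romidepsin, 26.7 and 22.4 with quisinostat and 46.9 and 21.9 with mivebresib. Its groups overlapped in each comparison with control, and its interval for mivebresib was -0.73 to 0.86.

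Among 5 other antiviral effectors, SAMD9 and SAMD9L, a neighbouring pair on chromosome 7 that limits poxvirus replication and cell growth, were higher with both HDAC inhibitors. Of all genes, 15.2% were higher with romidepsin and 28% with quisinostat. SAMD9 (chr7:93099513-93118023) had 24.7 and 19.8 CPM in control, 49.1 and 39.2 with romidepsin, 59.4 and 62.6 with quisinostat and 16.7 and 11.7 with mivebresib. The romidepsin and quisinostat libraries all lay above control and the mivebresib libraries below it. The log2 fold change was 0.99 with romidepsin (SE 0.18, adjusted p = 0.00406), 1.45 with quisinostat (SE 0.18, adjusted p = 0.000217) and -0.65 with mivebresib (SE 0.19, adjusted p = 0.0196). The decrease did not pass without control replicate 1 (-0.46) or mivebresib replicate 2 (-0.42). SAMD9L had 11.4 and 9.90 CPM in control, 20.8 and 15.7 with romidepsin, 18.9 and 19.7 with quisinostat and 9.47 and 8.74 with mivebresib. It was higher with romidepsin (log2 0.78, SE 0.14, adjusted p = 0.00488) and quisinostat (log2 0.86, SE 0.14, adjusted p = 0.00125), and its mivebresib interval was -0.57 to 0.12. MX1, MX2 and RSAD2, the dynamin-like GTPases and viperin, passed in none of the 6 comparisons. RSAD2 had the wide mivebresib estimate of -1.48 (SE 0.56, adjusted p = 0.0593), with 5.38 and 2.23 CPM in control and 1.68 and 1.04 with mivebresib.

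Of the 4 membrane restriction factors, 3 were lower with mivebresib, where 24.1% of all genes were. IFITM2, which blocks fusion of viruses in endosomes (chr11:307631-315272), had 16.5 and 14 CPM in control, 13.1 and 12.9 with romidepsin, 13.6 and 11.8 with quisinostat and 6.44 and 5.68 with mivebresib. The mivebresib libraries held less than any other, at a log2 fold change of -1.33 (SE 0.13, adjusted p = 9.1e-05). IFITM3 was lower with mivebresib (log2 -0.70, SE 0.20, adjusted p = 0.0198) and with quisinostat (log2 -0.61, SE 0.20, adjusted p = 0.0302). Both IFITM3 calls were lost without control replicate 1 (-0.42 and -0.36), the mivebresib call also without mivebresib replicate 2 (-0.48), and the quisinostat call without quisinostat replicate 1 (-0.75) or 2 (-0.54). BST2, at 220 and 246 CPM in control and 197 and 147 with mivebresib, was lower by -0.44 (SE 0.14, adjusted p = 0.0277), and without mivebresib replicate 2 its value was -0.24. Leaving out control replicate 2 (-0.35) or either quisinostat library (-0.43) also ended the BST2 call. IFITM1 had 12.5 and 2.81 CPM in the mivebresib libraries and was called in no comparison. The IFITM genes are near-identical copies, and the models of IFITM1 and IFITM2 overlap on the same strand, so the split of reads between them is uncertain.

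The IFI genes, named for their induction by interferon, and XAF1 moved in different directions. IFI6, a mitochondrial protein that restrains apoptosis (chr1:27666061-27672218), had 82.2 and 96.5 CPM in control, 161 and 124 with romidepsin, 106 and 110 with quisinostat and 225 and 133 with mivebresib. Every treated library was above the control libraries, and the mivebresib change passed (log2 1.00, SE 0.23, adjusted p = 0.00707) while that with romidepsin did not (log2 0.67, SE 0.23, adjusted p = 0.0530). IFI44 had 5.63 and 3.76 CPM in control, 9.10 and 6.65 with romidepsin, 11.0 and 9.78 with quisinostat and 2.60 and 1.76 with mivebresib. It was higher with romidepsin (log2 0.74, SE 0.24, adjusted p = 0.0461) and quisinostat (log2 1.14, SE 0.24, adjusted p = 0.00367) and lower with mivebresib (log2 -1.11, SE 0.28, adjusted p = 0.0108). Its romidepsin call was lost when any library except control replicate 1 was left out, at values from 0.48 to 0.95, and its mivebresib call without mivebresib replicate 2 (-0.86).

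IFI35, a partner of the interferon-induced protein NMI, had 34.4 and 21.7 CPM in control, 38.8 and 38.7 with romidepsin, 17.1 and 14.8 with quisinostat and 17.7 and 12.2 with mivebresib. It was lower with quisinostat (log2 -0.81, SE 0.23, adjusted p = 0.0156) and mivebresib (log2 -0.91, SE 0.23, adjusted p = 0.0118), calls that did not hold without quisinostat replicate 2 (-0.75) and mivebresib replicate 2 (-0.66), respectively. XAF1, a pro-apoptotic binder of the inhibitor XIAP, had 10.9 and 5.08 CPM in control, 9.14 and 6.10 with romidepsin, 6.81 and 7.58 with quisinostat and 3.04 and 3.45 with mivebresib. The decrease with mivebresib was -1.31 (SE 0.35, adjusted p = 0.0155), and it did not pass without control replicate 1 (-0.62), mivebresib replicate 1 (-1.22) or mivebresib replicate 2 (-1.40). IFI44L lay at 1.52 and 0.438 CPM in control, 1.75 and 0.413 with romidepsin, 1.90 and 0.796 with quisinostat and 0.219 and 0.216 with mivebresib. Its replicate spread was wide, and the mivebresib estimate of -2.16 (95% interval -4.37 to 0.06) did not pass. IFI27 lay between 147 and 271 CPM in all libraries and was called in no comparison.

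All 3 members of the ADP-ribosylation group were lower with mivebresib, where 24.1% of all genes were. PARP9 (chr3:122527924-122564577) forms a complex with the ubiquitin ligase DTX3L. It had 11.5 and 8.95 CPM in control, 20.5 and 16.2 with romidepsin, 12 and 12.6 with quisinostat and 5.78 and 3.09 with mivebresib. Romidepsin libraries were the highest and mivebresib libraries the lowest, with changes of 0.84 (SE 0.23, adjusted p = 0.0270) and -1.21 (SE 0.26, adjusted p = 0.00567). Without either romidepsin library the first change was 0.66 or 1.00 and was not called. DTX3L had a mivebresib change of -0.93 (SE 0.23, adjusted p = 0.0105), and its romidepsin interval was -0.51 to 0.51. The promoters of PARP9 and DTX3L adjoin. PARP9 was called higher under romidepsin and DTX3L was not, and whether the changes of the 2 genes differ was not tested. PARP14, a mono-ADP-ribosyltransferase, had 29.6 and 31.0 CPM in control, 35.6 and 28.8 with romidepsin, 20.6 and 22.4 with quisinostat and 13.9 and 10.6 with mivebresib. Its decrease was -1.30 with mivebresib (SE 0.15, adjusted p = 0.000187) and -0.50 with quisinostat (SE 0.14, adjusted p = 0.0175), and without quisinostat replicate 1 the second value was -0.46 and did not pass.

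PSMB8 and PSMB9 encode catalytic subunits that replace constitutive ones in the immunoproteasome, which trims peptides for MHC class I. PSMB8 (chr6:32840717-32844703) had 16.9 and 14 CPM in control, 18.5 and 21.6 with romidepsin, 20.4 and 17.9 with quisinostat and 4.35 and 3.24 with mivebresib. The mivebresib libraries were far below the others, 4.08-fold under control (log2 -2.03, SE 0.17, adjusted p = 4.34e-05). PSMB9 (chr6:32844136-32859585) had 2.87 and 1.53 CPM in control, 5.01 and 4.17 with romidepsin, 7.72 and 6.50 with quisinostat and 2.27 and 1.22 with mivebresib. It was higher with quisinostat, 3.22-fold (log2 1.69, SE 0.31, adjusted p = 0.0020), and with romidepsin (log2 1.05, SE 0.32, adjusted p = 0.0369), and its mivebresib interval was -1.16 to 0.48. The romidepsin call was lost without control replicate 2 (0.68), romidepsin replicate 1 (0.92) or 2 (1.18), or either quisinostat library (1.07). PSMB9 shares bases with PSMB8 and with TAP1 on the opposite strand, and TAP1 changed by -0.69 with mivebresib (adjusted p = 0.00592).

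**Figure D4:**
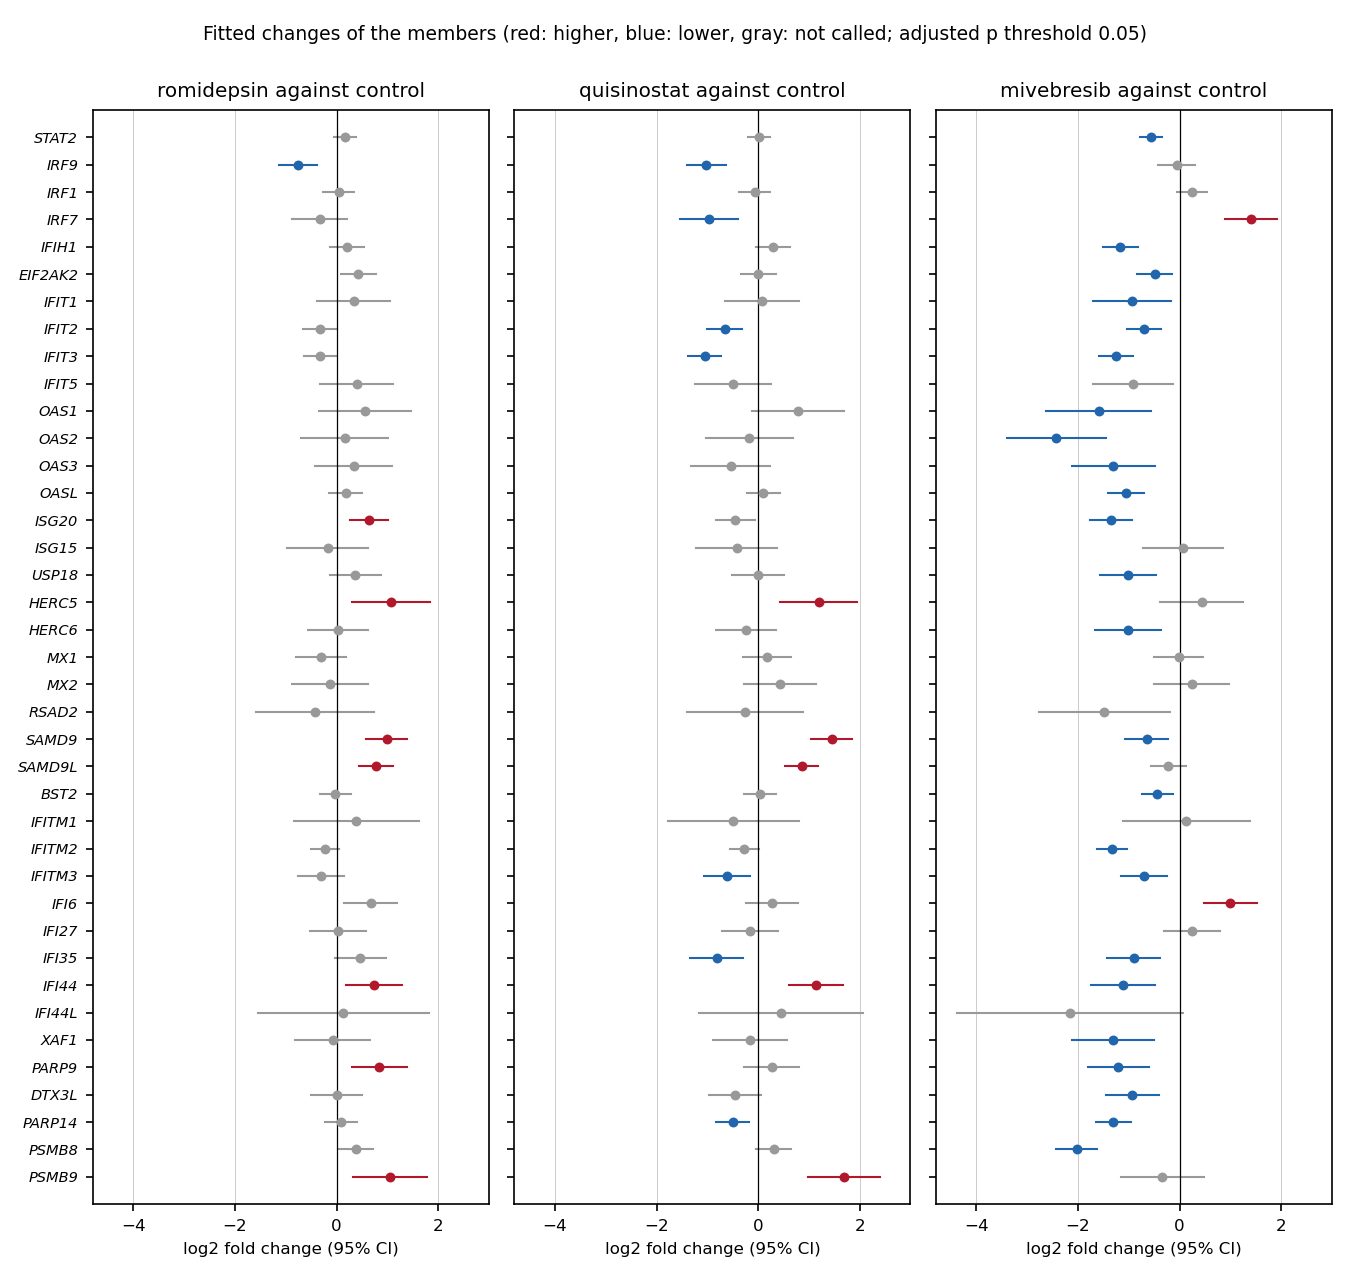
Fitted log2 fold change against control (x axis) with its 95% interval for each of the 39 members under romidepsin, quisinostat and mivebresib, from the edgeR model of all 8 libraries; red marks members called higher, blue lower and gray not called. Blue marks 24 members in the mivebresib panel, 7 in the quisinostat panel and 1 in the romidepsin panel.

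The drugs were also set against each other in the same model. Romidepsin and quisinostat were given at the same concentration and share a target class, and 4 of 39 members were lower with quisinostat and none was higher, where 14.6% and 21% of all genes were called. The 4 were ISG20 (log2 -1.09, SE 0.17, adjusted p = 0.00169), IFI35 (log2 -1.28, SE 0.23, adjusted p = 0.00332), IFIT3 (log2 -0.72, SE 0.14, adjusted p = 0.0053) and PARP14 (log2 -0.58, SE 0.14, adjusted p = 0.0134). PARP14 did not pass without romidepsin replicate 1 (-0.42) or quisinostat replicate 1 (-0.56). For the 5 members higher with both HDAC inhibitors, the direct difference did not pass. Its interval ran from 0.07 to 0.85 for SAMD9 (adjusted p = 0.0643), -0.23 to 0.40 for SAMD9L, -0.11 to 0.91 for IFI44, -0.57 to 0.81 for HERC5 and -0.02 to 1.28 for PSMB9. These counts depended on the libraries fitted: with only the 4 libraries of the comparison, 17 members were lower with quisinostat and 2 were higher. The share of all genes called in that fit is not given here. In the model of all groups, the counts also changed when a single control or mivebresib library was left out. The share of all genes called in those fits is not given here either.

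Mivebresib was given at a higher concentration than the HDAC inhibitors, so differences between them hold for these doses alone. Against romidepsin, 25 members were lower with mivebresib and 2 were higher, IRF7 and IRF9, where 25.2% and 23.7% of all genes were called. Against quisinostat, 21 were lower and 3 were higher, IRF7, IRF9 and IFI6, where the background was 31.5% and 26.2%. PSMB8 was lower than with romidepsin by -2.40 (SE 0.17, adjusted p = 1.61e-05) and than with quisinostat by -2.34 (SE 0.17, adjusted p = 1.19e-05). IRF7 was higher by 1.74 (SE 0.23, adjusted p = 0.000351) and 2.37 (SE 0.24, adjusted p = 5.74e-05). IRF9 was higher by 0.71 (SE 0.16, adjusted p = 0.00722) and 0.96 (SE 0.17, adjusted p = 0.00118), and without mivebresib replicate 1 its difference from romidepsin was 0.50 and did not pass. The number of members higher than with quisinostat also changed when a control library or mivebresib replicate 2 was left out. The share of all genes called in those fits is not given here. The IFI6 difference from quisinostat, 0.73, was not called without mivebresib replicate 1 (0.30) or either quisinostat library (0.73 and 0.80).

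Of the 24 members lower with mivebresib than in control, 18 were also lower than with each HDAC inhibitor, among them OAS2, IFIH1, STAT2, PSMB8 and IFITM2. The 3 comparisons use the same mivebresib libraries. How many of all genes show this or another combination of calls was not counted. Without mivebresib replicate 2, 9 of the 18 kept all 3 calls, those named here included, and EIF2AK2, IFIT1, OAS1, USP18, HERC6, SAMD9, BST2, IFI44 and XAF1 did not. Without control replicate 1 or quisinostat replicate 1, 12 of the 18 kept them. ISG20, SAMD9, IFI44 and PARP9 were higher with romidepsin and lower with mivebresib, and SAMD9 and IFI44 were also higher with quisinostat. SAMD9 differed between mivebresib and quisinostat by -2.10 (SE 0.18, adjusted p = 2.85e-05) and IFI44 by -2.25 (SE 0.26, adjusted p = 0.000133). SAMD9L and PSMB9 were not called with mivebresib against control but lay below both HDAC inhibitors, by -1.0 and -1.40 against romidepsin and -1.08 and -2.03 against quisinostat. The PSMB9 difference from romidepsin was lost without romidepsin replicate 1 (-1.26) or mivebresib replicate 2 (-1.02).

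A smaller group was lower with both mivebresib and quisinostat: IFIT2, IFIT3, IFITM3, IFI35 and PARP14. PARP14 was lower still with mivebresib than with quisinostat (log2 -0.81, SE 0.15, adjusted p = 0.00175). For the other 4 the difference between these drugs did not pass, with 95% intervals of -0.39 to 0.30 for IFIT2, -0.54 to 0.14 for IFIT3, -0.55 to 0.36 for IFITM3 and -0.63 to 0.44 for IFI35. Members that passed in none of the 6 comparisons were IRF1, ISG15, MX1, MX2, RSAD2, IFITM1 and IFI27. IFIT5 was called only against romidepsin, below which it lay with mivebresib (log2 -1.32, SE 0.34, adjusted p = 0.0114), and IFI44L only between mivebresib and quisinostat (log2 -2.61, SE 0.92, adjusted p = 0.0377). The IFIT5 call did not hold without romidepsin replicate 1 (-1.19), mivebresib replicate 1 (-1.36) or mivebresib replicate 2 (-1.28), nor that of IFI44L without quisinostat replicate 1 (-1.82) or either mivebresib library (-2.62 and -2.60).

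The wider interferon pathway was read from a list of 97 other genes, of which 69 were tested. Mivebresib gave 36 lower and 10 higher, quisinostat 21 lower and 12 higher, and romidepsin 10 lower and 9 higher. Over all genes tested the shares were 24.1% lower and 22.2% higher with mivebresib, 25.1% and 28% with quisinostat, and 15.8% and 15.2% with romidepsin. The romidepsin counts were near that background, and the mivebresib decreases were above it. The list and its roles were chosen with earlier results of these data known, so counts from it are descriptions alone. The ligands were nearly absent. None of 22 interferon genes passed the filter, IFNW1 reached at most 5 counts in a library and the others at most 1. The receptor genes IFNAR1 and IFNAR2 were not called with mivebresib (log2 0.15 and 0.12), and IFNAR2 was higher with romidepsin (log2 0.37, SE 0.12, adjusted p = 0.0445). With mivebresib the interferon gamma receptor chains parted, IFNGR1 being higher (log2 0.68) and IFNGR2 lower (log2 -1.16).

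Of the receptor kinases, JAK1 was higher with mivebresib (log2 0.82, SE 0.08, adjusted p = 6.77e-05). The feedback inhibitors SOCS1 and SOCS3 moved in opposite directions with mivebresib. SOCS1 rose from 13 and 5 counts to 47 and 53 (log2 2.47, SE 0.56, adjusted p = 0.00675), and SOCS3 fell from 238 and 228 counts to 71 and 67 (log2 -1.74, SE 0.13, adjusted p = 1.97e-05).

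Of the 10 tested genes of nucleic acid sensing, 8 were lower with mivebresib, where 24.1% of all genes were. TLR3, the endosomal receptor of double-stranded RNA, had 298 and 384 counts in control, 795 and 716 with romidepsin, 675 and 756 with quisinostat and 74 and 84 with mivebresib. It was higher with both HDAC inhibitors (log2 1.08 and 0.89) and lower with mivebresib (log2 -2.10, SE 0.17, adjusted p = 3.42e-05). IKBKE, a kinase that activates IRF3 and IRF7, was also lower (log2 -1.76, SE 0.17, adjusted p = 8.61e-05). IRF8 stood at 0 and 1 counts in control, 7 and 5 with romidepsin, 15 and 10 with quisinostat and 9 and 6 with mivebresib.

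Of the 37 tested genes in a list of other interferon-induced effectors, 22 were lower and 2 higher with mivebresib, where 24.1% and 22.2% of all genes were. CXCL10, a chemokine for T cells, had 27 and 25 counts in control, 18 and 17 with romidepsin, 10 and 7 with quisinostat and 1 and 0 with mivebresib. TRIM22, an antiviral ubiquitin ligase, went from 701 and 634 counts in control to 489 and 450, 259 and 222, and 35 and 41, in the same order of drugs, and was lower with each (log2 -0.57, -1.65 and -4.12). APOBEC3C, a cytidine deaminase, was lower with mivebresib by -2.32 (SE 0.11, adjusted p = 2.61e-06) and NMI by -2.31 (SE 0.26, adjusted p = 0.000177). UBE2L6, the conjugating enzyme for ISG15, was picked after its values were seen. It was higher with romidepsin (log2 1.11) and quisinostat (log2 1.97) and lower with mivebresib (log2 -1.56, SE 0.36, adjusted p = 0.00715), the same order as SAMD9.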

How the data were processed

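Raw read counts per gene symbol were deposited for 8 libraries. Per the labels the libraries were strand-specific mRNA libraries read from both ends, and per the study's methods the authors ran BioJupies on the raw reads. The genome build in the submitters' processing notes is hg38, and the aligner, annotation and strand setting are not given in the sources used here. The log CPM and quantile-normalized tables of the same libraries were not used.

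Counts were analysed with edgeR 4.0.16 in R 4.3.3: filterByExpr, TMM scaling, 1 quasi-likelihood model of all 8 libraries without covariates, 6 contrasts, and Benjamini-Hochberg adjustment over 15085 genes. A gene was called at an adjusted p under 0.05. Intervals are 95% intervals of the fit. Alternatives used library sizes, relative log expression factors, no filter, DESeq2 1.42.0, limma 3.58.1 (voom), a replicate block, 4 libraries, the study's fold threshold of 1.5, and leaving out each library. The fit was tested on simulated data first.

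The members, roles, pathway list and markers were chosen with earlier results of these data known. Values per library were to be given for members past both thresholds, for STAT2, IRF1, IRF7 and IRF9, and for members beyond 1 on the log2 scale in a direct comparison, and in the pathway list for up to 4 genes a role past both thresholds. A gene of the pathway list is not reported here by name. IFIT3, IFI6, ISG15, HERC5, RSAD2 and BST2 were added after their values were seen. Coordinates are from GENCODE 29 (GRCh38).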

Additional observations from a re-analysis of the deposited data

How the results depend on the processing

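No member's call changed direction under any of the 15 other fits, and of 101 calls over the 6 comparisons 0 were lost without the low-count filter, 1 with relative log expression factors, 1 with DESeq2, 1 with the replicate block (HERC5 with romidepsin, 1.05), 3 with limma-voom, 4 with library sizes alone and 8 with only the 4 libraries of a comparison. Leaving out a library cost between 3 (control replicate 2) and 26 of them (mivebresib replicate 2), with 18 and 17 lost without quisinostat replicate 1 and 2. Library sizes alone moved the median of all genes with quisinostat to 0.20, changed its split of all genes from 28% higher and 25.1% lower to 37.3% and 14.2%, and gave 7 members higher and 5 lower. That split was 18.5% and 11.3% with romidepsin. Calls made in every fit against control were those of STAT2, IFIH1, IFIT2, IFIT3, OAS2, OASL, ISG20, IFITM2, PARP9, DTX3L, PARP14 and PSMB8 (lower) and IRF7 and IFI6 (higher) with mivebresib, SAMD9, SAMD9L, IFI44 and PSMB9 (higher) and IRF9, IFIT2 and IFIT3 (lower) with quisinostat, and SAMD9 and SAMD9L (higher) with romidepsin. Leaving out 1 library gave 2 to 13 members higher and 0 to 4 lower with romidepsin, 4 to 8 higher and 4 to 13 lower with quisinostat, and 2 to 3 higher and 12 to 26 lower with mivebresib. The medians ranged from 0.027 to 0.54, -0.38 to 0.15 and -1.20 to -0.56. Between drugs the ranges were 0 to 2 higher and 3 to 10 lower for quisinostat against romidepsin, 1 to 3 and 19 to 28 for mivebresib against romidepsin, and 2 to 5 and 14 to 24 for mivebresib against quisinostat. With a log2 change beyond 1.5 also required, the members higher and lower were 0 and 0 with romidepsin, 1 and 0 with quisinostat, and 0 and 3 with mivebresib. Between drugs they were 0 and 0 for quisinostat against romidepsin, 1 and 8 for mivebresib against romidepsin, and 1 and 7 for mivebresib against quisinostat. For the comparisons between drugs, the share of all genes past both thresholds was not counted. With only the 4 libraries of a comparison, 4 members were higher with romidepsin, where 8.79% of all genes were. In such fits 2 were higher and 17 lower for quisinostat against romidepsin, and 5 were higher for mivebresib against quisinostat. For quisinostat against romidepsin, 1 member was higher with library sizes alone and 1 with limma-voom. Whether the replicate numbers mark a shared plate or day is not given in the sources used here. Correlations of same-numbered libraries over all genes ran from -0.162 to 0.158, with 2 of 6 above 0.1, so the numbers were not taken to pair the wells. Over the members they ran from -0.245 to 0.599, with 5 of 6 above 0.1. With the replicate block the counts were 8 higher and 1 lower with romidepsin, 6 and 8 with quisinostat, and 2 and 27 with mivebresib. Of all genes in that fit, 14.8% were higher and 15.3% lower with romidepsin. The shares were 27.8% and 24.9% with quisinostat, and 22% and 23.9% with mivebresib. For quisinostat against romidepsin the counts were 2 and 9. The romidepsin numbers were also crossed in the replicate block, a setting chosen after seeing the data. The counts were then 11 and 4 with romidepsin and 1 and 11 for quisinostat against romidepsin. The share of all genes called is not given here for the crossed fit, nor for direct comparisons of drugs outside the main fit. Causes were not tested. With 2 libraries a group, a leave-one-out fit assumes that the lone library varies like the other groups.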
